A study of Rattus norvegicus with 30 samples.

Results

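SMAD proteins carry the signal of the TGF-β superfamily from the cell surface to the nucleus. Type I receptors for bone morphogenetic proteins (BMPs) phosphorylate SMAD1, SMAD5 and SMAD9, and type I receptors for TGF-β and activin phosphorylate SMAD2 and SMAD3. Either kind of receptor-regulated SMAD then joins SMAD4, the common partner, and the complex binds DNA beside other factors. In endothelium the BMP branch is best known from the circulating ligands BMP9 and BMP10, which act through the receptor ALK1 (gene Acvrl1), its co-receptor endoglin (Eng) and the type II receptor BMPR2. Inherited loss of ACVRL1, ENG or SMAD4 causes hereditary haemorrhagic telangiectasia, and loss of BMPR2 causes pulmonary arterial hypertension.

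The genes described here are the 6 that encode these signal-carrying SMADs, taken by name from a table of 30562 genes: Smad1, Smad5 and Smad9 of the BMP branch, Smad2 and Smad3 of the TGF-β branch, and Smad4. Each name had 1 row, and all 6 genes were among the 16171 that passed the filter on low counts. RNA was sequenced from CD31+ lung cells of wild-type rats, a population sorted with microbeads by the endothelial surface protein that the Pecam1 gene encodes. The cells were taken 3 weeks after sham or Glenn surgery, and the diet afterwards was a vitamin A control, a deficient or an excess one. Glenn surgery (superior cavopulmonary anastomosis) connects the superior vena cava directly to a pulmonary artery, which leaves hepatic venous blood out of the flow to that lung. The 6 groups (sham or Glenn on each diet) hold 5 libraries each, all with the same genotype label, and the strain, sex and age of the rats are not given in the sources used here. By the level of the Y-chromosome gene Ddx3y (over 10 CPM read as male), 3 libraries of the Glenn excess group and 2 of each other group were male. Each group therefore came from more than 1 animal. The labels do not say that all libraries of a group came from separate animals, so the p-values measure the spread between these libraries, which may be in part technical. The values are transcript levels and say nothing of how much of each protein was phosphorylated.

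The libraries held 22 to 77.6 M estimated counts (median 40 M; M, mega). The 6 genes had 269 counts (Smad3, lowest library) to 19169 counts (Smad1, highest library), so none was limited by counting depth. Levels are given as CPM (counts per 1 M counts of the library, with TMM scaling) and compare 1 gene between libraries and not genes with each other, since they are not corrected for transcript length. The defining endothelial genes Pecam1 (863 to 1730 CPM over the 30 libraries) and Cdh5 (1560 to 2930 CPM) were high in all of them. Markers of other lung cells were also read: the summed level of 7 epithelial markers, led by the surfactant gene Sftpc, was 25100 to 59100 CPM. The leukocyte list was almost entirely Lyz2 (8030 to 24400 CPM), with the pan-leukocyte gene Ptprc at 2.42 CPM in the median library and Marco at 0 there. A bulk library cannot tell a change in the RNA of each cell from a change in the share of cells that make it.

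Glenn surgery was followed by unequal and partly opposite changes among the SMAD genes. Averaged over the diets, Smad1 rose 3.7-fold, Smad3 and Smad5 rose less, Smad2 rose slightly, Smad9 fell, and Smad4 did not pass the test. A gene is called changed where edgeR's quasi-likelihood test gave a Benjamini-Hochberg adjusted p under 0.05 over all 16171 genes. Of the 6 SMADs, 4 were higher and 1 was lower in that average, where 23.4% of all genes tested were called higher and 24.7% lower. On the control diet 4 were higher and 1 lower, on the deficient diet 3 and 1, and on the excess diet 3 and 1. The share of all genes called was 11.8% higher and 13.1% lower on the control diet, 13.7% higher and 13.7% lower on the deficient diet, and 11.6% higher and 10.4% lower on the excess diet. Smad1, Smad3 and Smad5 were called higher, and Smad9 lower, on each of the 3 diets, a condition that 7.05% of all genes met upward and 6.46% downward. The 3 diets use separate sham and Glenn libraries. The median log2 change over the 6 SMADs was 0.21, against -0.01 over all genes tested. When counts were scaled by library totals in place of TMM, the share of all called genes that were higher went from 48.6% to 63.5% for the average over diets. By diet it became 62.1% in place of 47.4% (control), 68.7% in place of 50.1% (deficient) and 63.9% in place of 52.6% (excess).

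**Figure D1:**
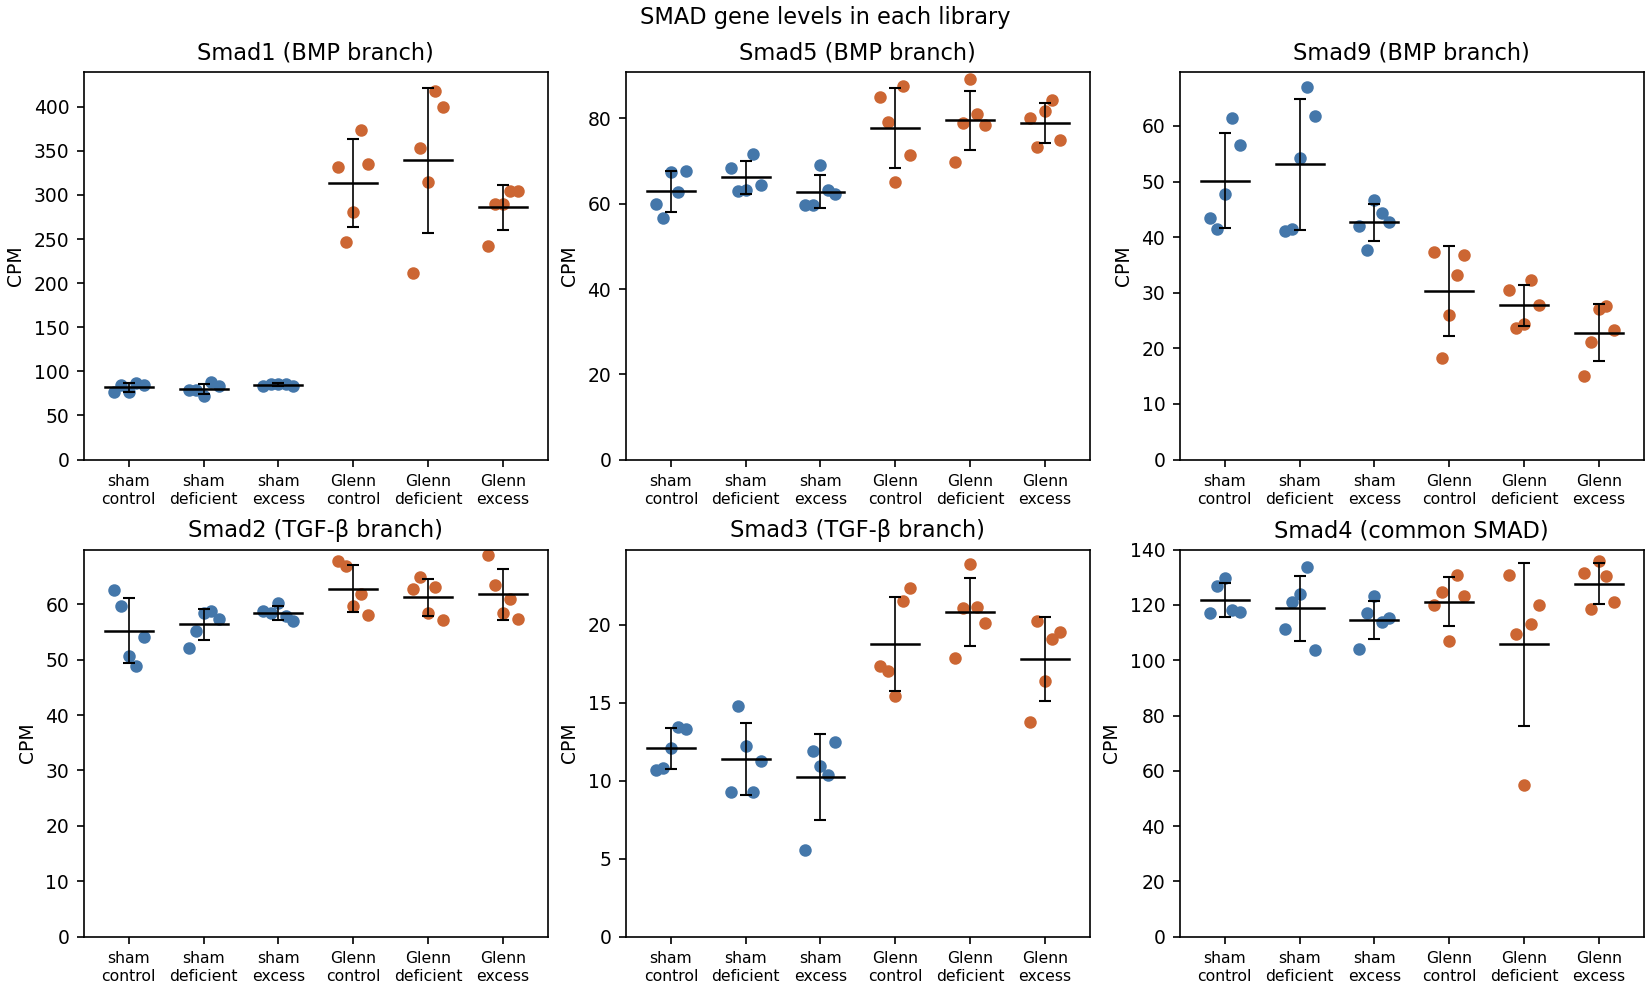
Level of each SMAD gene in each of the 30 libraries (vertical axes in CPM, from 0, scaled separately per gene), by surgery and diet. Points are libraries in order of replicate number, long bars are group means and error bars are SD (n = 5). The 15 Glenn libraries lie above all 15 sham libraries for Smad1 and below all of them for Smad9, and for Smad4 a single Glenn library on the deficient diet stands apart at 55 CPM.

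Smad1 encodes the receptor-regulated SMAD through which BMP receptors signal in most cell types. After sham surgery its level on the control diet was 77, 84.3, 76.1, 86.8 and 84.9 CPM in replicates 1 to 5. On the deficient diet the sham libraries read 78.8, 78.3, 71.7, 87.5 and 82.9 CPM, and on the excess diet 83.2, 86.1, 85.8, 85.8 and 83.7 CPM. All 15 sham libraries therefore fell within a narrow band. After Glenn surgery the control-diet libraries read 331, 247, 281, 373 and 335 CPM. The deficient-diet libraries read 211, 353, 315, 418 and 400 CPM, and the excess-diet libraries 242, 290, 290, 304 and 304 CPM. Every Glenn library was above every sham library, and 5.83% of all genes tested had no overlap in 1 direction or the other. The Glenn libraries differed more among themselves, with a coefficient of variation of 18.4% against 5.71% over the 15 libraries of each operation.

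The mean of Smad1 rose from 82.2 ± 4.69 CPM after sham to 313 ± 57.7 CPM after Glenn (SD, n = 15 each). The log2 change was 1.89 (SE 0.07, adjusted p = 2.96e-19, edgeR), the 9th strongest result of the 16171 genes by its F statistic. Of all genes tested, 2.56% changed at least as much in size in either direction. By diet, the log2 change was 1.94 (SE 0.11, adjusted p = 2.73e-13) on the control diet, 2.12 (SE 0.11, adjusted p = 6.2e-14) on the deficient diet and 1.61 (SE 0.12, adjusted p = 7.82e-11) on the excess diet. The fit holds a term for the range of the library-name number (the number-range term). On the excess diet 5 sham libraries were in the lower range and 0 in the upper, against 2 and 3 Glenn libraries. The term therefore bears on the excess value, which ran from 1.54 to 1.75 under the other settings tried. The deficient value ran from 1.90 to 2.34. The order of the group means was sham deficient (79.8 ± 5.9 CPM), sham control (81.8 ± 4.92 CPM), sham excess (84.9 ± 1.35 CPM), Glenn excess (286 ± 25.6 CPM), Glenn control (314 ± 49.6 CPM) and Glenn deficient (340 ± 82.2 CPM). Only the step from sham excess to Glenn excess was larger than the spread of the neighbouring groups.

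Smad9 encodes the third BMP-regulated SMAD, and rare loss of it has been reported in pulmonary arterial hypertension. It moved the other way. Sham libraries read 43.5, 41.4, 47.8, 61.4 and 56.6 CPM on the control diet, 41, 41.4, 54.3, 67.1 and 61.7 CPM on the deficient diet, and 42, 37.7, 46.6, 44.4 and 42.6 CPM on the excess diet. Glenn libraries read 37.3, 18.2, 26, 33.2 and 36.8 CPM on the control diet, 30.5, 23.7, 24.4, 32.3 and 27.7 CPM on the deficient diet, and 15, 21.1, 27.1, 27.7 and 23.3 CPM on the excess diet. The highest Glenn library (37.3 CPM) was just under the lowest sham library (37.7 CPM), so the 2 operations did not overlap but came within 1 CPM of doing so. Over all genes tested, 5.83% had 15 sham and 15 Glenn libraries that did not overlap.

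The mean of Smad9 fell from 48.6 ± 9.18 to 27 ± 6.39 CPM (SD, n = 15 each), which is -0.91 as a log2 change (SE 0.09, adjusted p = 7.32e-10, edgeR). It was -0.73 (SE 0.15, adjusted p = 0.000407) on the control diet, -0.82 (SE 0.15, adjusted p = 0.000124) on the deficient diet and -1.18 (SE 0.17, adjusted p = 4.9e-06) on the excess diet. As for Smad1, the number-range term bears on the excess value, which ran from -1.26 to -0.90 under the other settings tried. The deficient value ran from -1.02 to -0.65, so these ranges overlap. The test of whether the surgery change of Smad9 differed between diets gave an adjusted p of 0.971 (edgeR). The group means ran from Glenn excess (22.8 ± 5.18 CPM) through Glenn deficient (27.7 ± 3.73 CPM), Glenn control (30.3 ± 8.13 CPM), sham excess (42.7 ± 3.31 CPM) and sham control (50.1 ± 8.58 CPM) to sham deficient (53.1 ± 11.8 CPM). Each step in that order, other than the one from Glenn control to sham excess, was smaller than the SD of at least 1 of the neighbouring groups.

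The promoters of Smad1 and Smad9 are printed because these genes had the largest changes of the BMP branch, in opposite directions. Each is the 250 bases before the gene's start in RefSeq, on the GRCr8 build, which is not the build of the counts (mRatBN7.2), and no value was read at these positions. Capitals mark matches to the SMAD motifs searched on both strands: GGCGCC and GGAGCC, bound by SMAD1 and SMAD5 complexes, and CAGAC, the SMAD-binding element.
Smad1, chr19:45417292-45417541, plus strand: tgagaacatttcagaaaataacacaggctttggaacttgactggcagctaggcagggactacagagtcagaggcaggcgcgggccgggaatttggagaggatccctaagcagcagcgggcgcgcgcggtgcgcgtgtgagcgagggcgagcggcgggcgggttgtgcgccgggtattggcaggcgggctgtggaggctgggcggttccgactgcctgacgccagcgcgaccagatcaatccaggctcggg
Smad9, chr2:141106418-141106667, plus strand: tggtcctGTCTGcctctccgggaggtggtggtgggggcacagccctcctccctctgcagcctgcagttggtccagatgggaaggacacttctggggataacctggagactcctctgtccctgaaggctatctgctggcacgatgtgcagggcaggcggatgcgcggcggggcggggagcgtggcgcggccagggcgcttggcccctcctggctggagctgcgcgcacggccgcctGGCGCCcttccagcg
The Smad1 window held 0 matches to any of the 3 motifs, and the Smad9 window held 1 GGCGCC and 1 CAGAC, the latter read on the opposite strand as GTCTG. Of 33469 RefSeq promoter windows of the same length, 8.69% held GGCGCC, 23% held GGAGCC and 42.9% held CAGAC, so these matches are letters that many promoters carry. Both windows were rich in G and C (64.8% for Smad1 and 70% for Smad9), with 24 and 17 CpG dinucleotides. The window of Smad5, which also rose, is not printed. It held 1 GGAGCC, 0 GGCGCC and 0 CAGAC, with 42.8% G and C and 1 CpG.

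Smad5, the closest relative of Smad1 in the BMP branch, rose modestly. Its sham libraries ranged from 56.6 to 71.7 CPM and its Glenn libraries from 65.1 to 89.2 CPM, so the operations overlapped. The mean went from 64 ± 4.2 to 78.7 ± 6.75 CPM (SD, n = 15 each), with a log2 change of 0.30 (SE 0.04, adjusted p = 2.22e-06, edgeR). The change was nearly the same on each diet, at 0.31 (adjusted p = 0.00292) on the control diet, 0.27 (adjusted p = 0.0082) on the deficient diet and 0.31 (adjusted p = 0.00745) on the excess diet. The 3 sham groups had means of 62.8 ± 3.9 (excess), 62.9 ± 4.79 (control) and 66.2 ± 3.8 CPM (deficient), and the 3 Glenn groups 77.7 ± 9.4 (control), 78.9 ± 4.62 (excess) and 79.5 ± 6.91 CPM (deficient). Within each operation the diets did not differ beyond their spread.

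Smad3 encodes the TGF-β-regulated SMAD that binds DNA directly. It had the fewest counts of the 6 genes. Sham libraries read 10.7, 10.8, 12.1, 13.4 and 13.4 CPM on the control diet, 9.3, 14.8, 12.2, 9.26 and 11.3 CPM on the deficient diet, and 5.56, 11.9, 11, 10.3 and 12.5 CPM on the excess diet. Glenn libraries read 17.4, 17.1, 15.5, 21.5 and 22.4 CPM on the control diet, 17.9, 21.1, 23.9, 21.1 and 20.1 CPM on the deficient diet, and 13.8, 20.3, 16.4, 19.1 and 19.6 CPM on the excess diet. Within each diet all 5 Glenn libraries were above all 5 sham libraries, and across diets the lowest Glenn library (13.8 CPM, excess diet) was under the highest sham library (14.8 CPM, deficient diet). The share of all genes with such a separation within a diet was not counted. The mean rose from 11.2 ± 2.19 to 19.1 ± 2.77 CPM, a log2 change of 0.77 (SE 0.10, adjusted p = 1.09e-07, edgeR). By diet it was 0.64 (SE 0.16, adjusted p = 0.00436) on the control diet, 0.87 (SE 0.17, adjusted p = 0.000197) on the deficient diet and 0.81 (SE 0.18, adjusted p = 0.00151) on the excess diet. The group means ran from sham excess (10.2 ± 2.75 CPM) through sham deficient (11.4 ± 2.31 CPM), sham control (12.1 ± 1.32 CPM), Glenn excess (17.8 ± 2.68 CPM) and Glenn control (18.8 ± 3.02 CPM) to Glenn deficient (20.8 ± 2.17 CPM), with only the step between the operations larger than the SDs beside it.

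Smad2, whose most abundant protein form does not bind DNA directly, moved little. Its sham libraries lay between 48.9 and 62.6 CPM and its Glenn libraries between 57.1 and 68.9 CPM. The mean went from 56.7 ± 3.79 to 62 ± 3.87 CPM, a log2 change of 0.13 (SE 0.04, adjusted p = 0.00536, edgeR), 1.1-fold. It passed the test on the control diet (0.19, adjusted p = 0.0376), and the values on the deficient diet (0.11, adjusted p = 0.233) and the excess diet (0.10, adjusted p = 0.364) did not. The control-diet call was lost when any 1 of 5 libraries was left out (sham replicates 3, 4 and 5, Glenn replicates 1 and 2; adjusted p = 0.072 to 0.126). Group means ran from 55.2 ± 5.86 (sham control), 56.4 ± 2.78 (sham deficient) and 58.4 ± 1.21 CPM (sham excess) to 61.2 ± 3.31 (Glenn deficient), 61.8 ± 4.61 (Glenn excess) and 62.8 ± 4.31 CPM (Glenn control), and no neighbours in that order differed beyond their spread.

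Smad4, the partner that both branches share, had the same mean after sham (118 ± 8.49 CPM) and after Glenn (118 ± 19.4 CPM). The log2 change was -0.02 (SE 0.07, adjusted p = 0.821, edgeR), with a 95% interval of -0.18 to 0.13. It did not pass the test on the control diet (-0.01, adjusted p = 0.976), the deficient diet (-0.15, adjusted p = 0.426) or the excess diet (0.08, adjusted p = 0.725). In 29 of the 30 libraries Smad4 lay between 104 and 136 CPM. The remaining one, replicate 3 of the Glenn group on the deficient diet, read 55 CPM against 109 to 131 CPM in the other 4 of its group. Without that library the log2 change was 0.05 (SE 0.04, adjusted p = 0.393) averaged over diets and 0.00 on the deficient diet, and all 5 SMAD calls of the average stood. That library also had the highest summed level of 8 mural-cell markers of the series, 1690 CPM, against 548 to 848 CPM in the rest of its group, and the part of this in the low Smad4 value was not tested. Group means ran from 106 ± 29.5 (Glenn deficient), 115 ± 6.85 (sham excess), 119 ± 11.7 (sham deficient), 121 ± 8.8 (Glenn control) and 122 ± 6.08 (sham control) to 128 ± 7.43 CPM (Glenn excess), and no neighbours in that order differed beyond their spread.

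**Figure D2:**
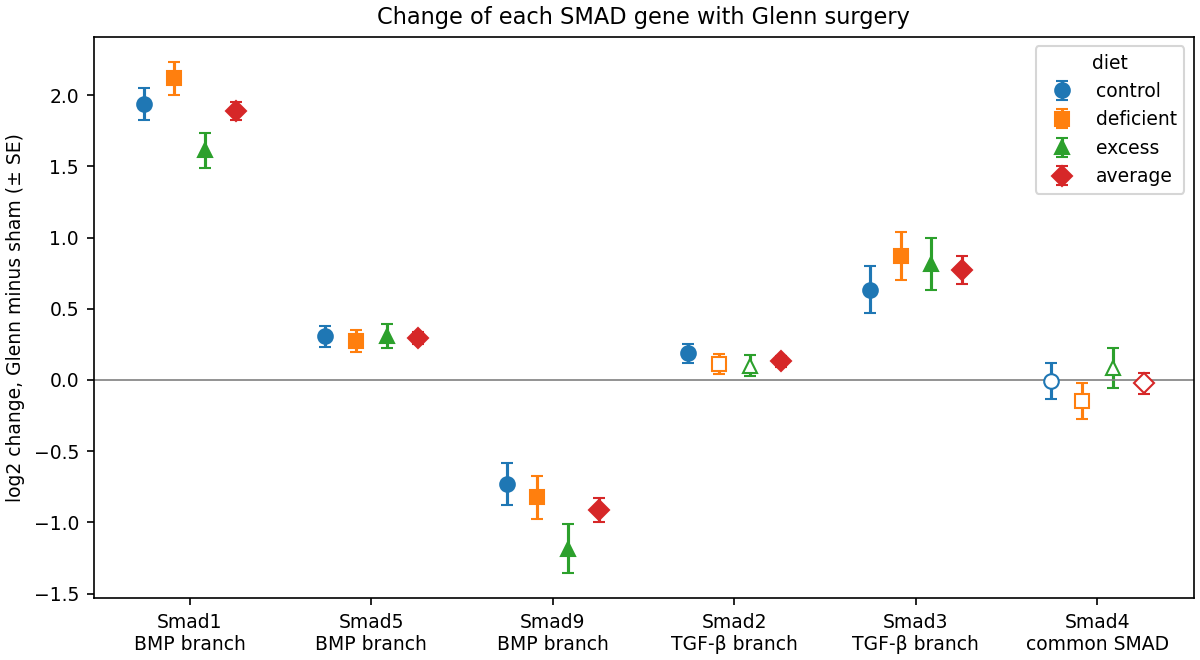
Log2 change of each SMAD gene, Glenn minus sham, from the edgeR fit with the number-range term, on each diet and averaged over diets. Bars are SE, filled symbols have an adjusted p under 0.05 and open symbols do not. The change of Smad1 lies between 1.61 and 2.12 on the 3 diets, that of Smad9 between -1.18 and -0.73, and that of Smad4 near 0.

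The branches were compared as the mean log2(CPM + 1) of Smad1, Smad5 and Smad9 minus that of Smad2 and Smad3 in each library. This index was 1.29 ± 0.18 after sham and 1.30 ± 0.16 after Glenn (SD, n = 15 each), a difference of 0.02. By diet the difference was 0.10 on the control diet, -0.01 on the deficient diet and -0.04 on the excess diet, each smaller than the SD of the groups compared. The means of the branches rose by like amounts, 0.45 for the BMP branch and 0.43 for the TGF-β branch. No test was run on these scores. Unlike the edgeR changes, they carry no number-range term. On the excess diet 5 sham libraries were in the lower range and 0 in the upper, against 2 and 3 Glenn libraries. The index difference there is not adjusted for this. With the term, the excess-diet changes were 1.61 (Smad1), 0.31 (Smad5), -1.18 (Smad9), 0.10 (Smad2) and 0.81 (Smad3). The index was not computed from them.

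Differences inside each branch were larger. Smad1 minus Smad9, on the log2(CPM + 1) scale, went from 0.76 (0.38 to 1.17 over the sham libraries) to 3.50 (2.75 to 3.93 over the Glenn libraries), a shift of 2.74 with no overlap. Smad1 minus Smad5 shifted by 1.60 from a sham mean of 0.36. Within the TGF-β branch, Smad3 minus Smad2 shifted by 0.60, from -2.26 ± 0.34 to -1.66 ± 0.26, and libraries of the operations overlapped. With Smad9 left out, the BMP branch minus the TGF-β branch went from 1.48 (1.26 to 1.85) to 2.15 (1.82 to 2.35), a shift of 0.67. Across branches, Smad5 minus Smad2 shifted by 0.17, and Smad1 minus Smad3 by 1.16.

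**Figure D3:**
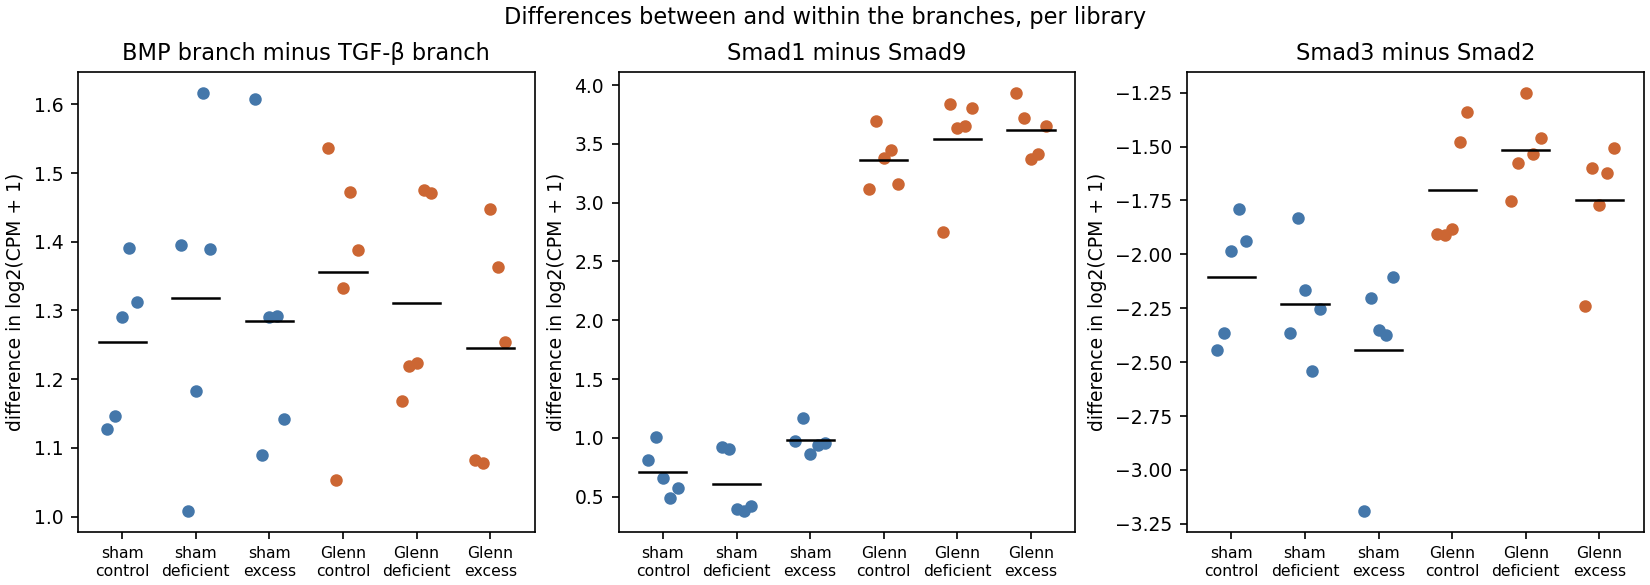
Differences in log2(CPM + 1) in each library: mean of the BMP-branch genes minus mean of the TGF-β-branch genes (left), Smad1 minus Smad9 (middle) and Smad3 minus Smad2 (right). Points are libraries in order of replicate number and bars are group means (n = 5), and each vertical axis has its own range, which does not start at 0. The left panel shows sham and Glenn libraries in 1 range, while in the middle panel sham libraries end at 1.17 and Glenn libraries begin at 2.75.

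Among the SMAD genes, few differences between diets passed a test. After sham surgery, a test of any difference among the 3 diets (2 degrees of freedom) called 0 of the 6 SMADs and 0% of all genes (0 of 16171 by edgeR, with 1417 genes and 0 SMADs at an unadjusted p under 0.05). DESeq2 called 202 genes in that test and limma voom 52, among them no SMAD. After Glenn surgery the test called 0 of 6 SMADs and 0.538% of all genes. Smad9 had an unadjusted p of 0.00134 and an adjusted p of 0.101, and Smad1 had 0.0323 and 0.372. DESeq2 called 1 SMAD in that test (Smad9, adjusted p = 0.0211), and so did edgeR when replicate 2 of the Glenn group on the control diet, the lowest Smad9 value of its group, was left out (Smad9, adjusted p = 0.0175). The test of whether the surgery change differed between diets called 0 SMADs and 0.00618% of all genes (1 gene). For Smad1, whose rise was 2.12 with the deficient and 1.61 with the excess diet, the interaction had an unadjusted p of 0.0178 and an adjusted p of 0.761.

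The diets were also compared in pairs, 36 comparisons over the 6 genes and both operations, a step added after the data were seen. In 1 of them the adjusted p was under 0.05: among Glenn libraries, Smad9 was lower with the excess than with the control diet (22.8 against 30.3 CPM, log2 change -0.69, SE 0.17, adjusted p = 0.0341, edgeR). In that comparison 0.575% of all genes were called lower. The libraries of these 2 groups overlapped, at 15 to 27.7 CPM and 18.2 to 37.3 CPM. The call was lost without a term for the library number range (-0.41, adjusted p = 0.395), in a fit of only the groups compared (-0.67, adjusted p = 0.126) and without replicate 1 of the Glenn excess group (-0.57, adjusted p = 0.288). Of the other 35 pairs, the lowest adjusted p was 0.292.

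Smad9 also varied with a property of the libraries that is not a group of the study. RT1-CE16, a class I gene of the rat major histocompatibility complex, read 21.9 to 44.4 CPM in 17 libraries and 407 to 949 CPM in the other 13. Class I genes have near-identical copies, so the value for this row is uncertain, and what sets its level was not tested. Both levels occurred in 5 of the 6 groups, and the sham excess group held low libraries only. With this level as a term in place of the number range, Smad9 was higher in high libraries by 0.41 (log2, SE 0.08, adjusted p = 0.00275, edgeR), a test that called 6.53% of all genes. On the deficient diet, for instance, the sham libraries read 41 and 41.4 CPM where RT1-CE16 was low and 54.3 to 67.1 CPM where it was high. Low and high libraries were also apart in the sham control and Glenn excess groups. They overlapped in the Glenn control group (18.2 to 37.3 CPM low, 33.2 to 36.8 CPM high) and the Glenn deficient group (23.7 to 30.5 CPM low, 27.7 to 32.3 CPM high). Smad1 had a difference of 0.21 (adjusted p = 0.0566), and none of the other SMADs passed.

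The surgery change of Smad9 was also computed within each level. In the low libraries it was -0.84 averaged over diets (SE 0.12, adjusted p = 5.87e-05), and by diet -0.64 (adjusted p = 0.0743) on the control, -0.65 (adjusted p = 0.0519) on the deficient and -1.23 (adjusted p = 0.000829) on the excess diet. In the high libraries it was -0.65 (adjusted p = 0.00416) on the control and -1.02 (adjusted p = 0.000148) on the deficient diet. All 5 of these values were negative. The control and deficient comparisons rested on groups of 2 and 3 libraries at both levels, and passed only at the high one; the difference between levels was not tested. Smad1 rose by 1.80 in the low libraries averaged over diets (SE 0.09, adjusted p = 3.57e-10). On the control diet its rise was 1.84 in low libraries (adjusted p = 3.36e-06) and 2.11 in high ones (adjusted p = 5.14e-08), and on the deficient diet 1.90 (adjusted p = 2.26e-06) and 2.34 (adjusted p = 1.36e-08). The library names also fall in number ranges under 500 (22 libraries) and over 500 (8 libraries), and between these Smad9 differed by 0.43 (adjusted p = 0.0721) and Smad1 by 0.23 (adjusted p = 0.213). All libraries over 500 were RT1-CE16-high, so the range and the RT1-CE16 level cannot be fully told apart. On the deficient diet, the only one with both ranges in both groups, the ranges split the libraries exactly as RT1-CE16 did. The values there are therefore not a separate check: Smad9 changed by -0.65 (adjusted p = 0.0575) under 500 and -1.02 (adjusted p = 0.000669) over 500, and Smad1 by 1.91 (adjusted p = 1.68e-07) and 2.34 (adjusted p = 6.3e-06).

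**Figure D4:**
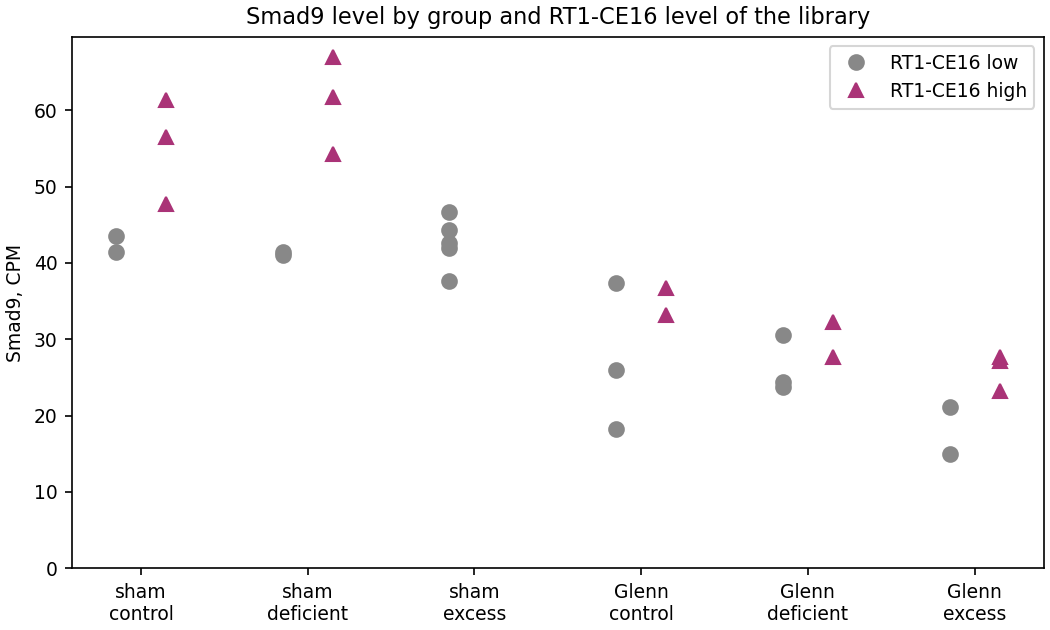
Smad9 level (CPM, axis from 0) in each library by group, with libraries split by the level of RT1-CE16: circles are libraries under 100 CPM of that gene and triangles those above. In the sham control and sham deficient groups every triangle (47.8 CPM and above) lies over every circle (43.5 CPM and below), and the Glenn libraries of both kinds are at 37.3 CPM or lower. Circles and triangles overlap in the Glenn control and Glenn deficient groups and are apart in the Glenn excess group.

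Within groups, Smad1 and Smad9 varied together although surgery moved them apart. Over the 30 libraries, the Pearson correlation of their log2(CPM + 1) levels was -0.76, and that of their deviations from the group means was 0.43 (Spearman 0.58). It was 0.49 over the 15 sham and 0.45 over the 15 Glenn libraries. Smad1 and Smad5 had a deviation correlation of 0.36, and Smad2 and Smad3 one of -0.31. These correlations describe libraries that share a sort and a table, and no test was run on them.

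Likeness was searched over 12478 named genes of mean level 1 CPM or more. Correlations of levels over the 30 libraries include the difference between the operations, and those within groups do not. Those with levels most like Smad1 over the 30 libraries were Adm (Pearson r = 0.99), which encodes the vasodilator peptide adrenomedullin, Vash1 (0.987), which encodes the angiogenesis inhibitor vasohibin, and Arhgap18 (0.985). Their Spearman correlations were 0.872, 0.824 and 0.87, and each rose after Glenn (log2 change 3.13, 3.48 and 1.24). Within groups the closest were Arl4c (0.818) and Gpc4 (0.788), a glypican gene. Without the 2 libraries farthest from the median these became 0.633 and 0.717, and their Spearman correlations were 0.494 and 0.752. The genes most like Smad9 were Tuft1 (0.879), Slc22a5 (0.874), the carnitine transporter, and Sgk3 (0.874), a kinase gene, and within groups Dusp14 (0.865), a phosphatase gene, and Perp (0.858), at 0.78 and 0.824 without the 2 farthest libraries. For Smad3 they were Rbm24 (0.908), Ino80c (0.904) and Kank1 (0.902), with Pcdh18 (0.751, or 0.603 without the 2 farthest libraries) and Cul9 (0.739, or 0.592) within groups. For Smad5 they were Gbe1 (0.883), Stab1 (0.876) and Gab2 (0.869), with Jcad (0.795) and Ppp1r16b (0.763) within groups. For Smad2 they were Hdac1 (0.84), Ddx59 (0.807) and Mapre1 (0.804), with Rcan1 (0.798) and Mapre1 (0.776) within groups. For Smad4 they were Cul3 (0.913), Ranbp9 (0.911) and Eif4enif1 (0.907), but without the 2 libraries farthest from the median these fell to 0.464, 0.446 and 0.426, so the likeness rested on those libraries. Within groups the closest to Smad4 were Tada2b (0.94) and Ranbp9 (0.914), which became 0.757 and 0.615 without them.

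Genes that act on or beside the SMADs were read from 11 lists that hold 57 genes, of which 55 were tested (the other two, Tgif2 and Ep300, each have 2 rows of that name in the table). In the average over diets 16 were higher and 25 lower, against 23.4% and 24.7% of all genes tested, and 14 did not pass. Of 8 BMP receptor genes, 2 were higher and 5 lower. Sham and Glenn libraries did not overlap for 5.83% of all genes tested, the share to set beside each gene named without overlap here and below. The receptors of the endothelial BMP branch fell with no overlap of sham and Glenn libraries: Acvrl1 from 1710 ± 122 to 644 ± 147 CPM (log2 change -1.39, SE 0.07, adjusted p = 6.11e-16), Bmpr2 from 642 ± 63.6 to 259 ± 33.3 CPM (-1.30, SE 0.06, adjusted p = 7.92e-17) and Eng from 2290 ± 283 to 821 ± 179 CPM (-1.45, SE 0.07, adjusted p = 3.11e-16). The largest rise was that of the type I receptor gene Bmpr1a (0.28, adjusted p = 0.00697). These 3 genes encode receptors upstream of SMAD1 in endothelium.

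Of 5 TGF-β and activin receptor genes, 2 were higher and 3 lower. The type II receptor gene Tgfbr2 rose from 470 ± 33.3 to 723 ± 83.8 CPM with no overlap (0.61, SE 0.05, adjusted p = 3.66e-11), and the type I receptor gene Tgfbr1 rose by 0.20 (SE 0.05, adjusted p = 0.00333). The largest fall was that of Acvr1c (-1.13, adjusted p = 0.0349), a gene read at only 0.535 CPM in sham and 0.256 CPM in Glenn libraries.

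Both inhibitory SMAD genes, whose proteins block receptor-regulated SMADs and which BMP signalling itself induces, fell. Smad6 went from 952 ± 125 to 125 ± 37.7 CPM (log2 change -2.90, SE 0.11, adjusted p = 5.63e-18) and Smad7 from 116 ± 31.3 to 31.2 ± 10.1 CPM (-1.94, SE 0.15, adjusted p = 1.62e-11), neither with overlap. Among SMAD ubiquitin ligase genes, which mark SMADs and receptors for degradation, 2 of 9 were higher and 2 lower. Smurf2 fell from 153 ± 11.3 to 73.3 ± 9.33 CPM (-1.04, SE 0.05, adjusted p = 5.8e-16), and the largest rise was that of Wwp1 (0.30, adjusted p = 0.000709). Of 5 deubiquitinase genes 1 was higher, Usp11 (0.38, adjusted p = 4.48e-06), and none was lower.

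Of 4 tested SMAD corepressor genes 1 was higher and 3 were lower. Tgif1, a homeobox corepressor of SMAD2 and SMAD3 complexes, rose from 37.2 ± 4.23 to 96.1 ± 13.1 CPM (1.37, SE 0.07, adjusted p = 2.88e-16), and Skil, also a TGF-β target, fell by 0.53 (SE 0.06, adjusted p = 3.92e-09). Both tested coactivator genes were lower, with the larger fall in the acetyltransferase gene Kat2b (-0.38, adjusted p = 4.11e-08). Of 3 genes for proteins that anchor SMADs near receptors 2 were lower, with the larger fall in Tgfbrap1 (-0.26, adjusted p = 1e-04). Of 4 SMAD phosphatase genes 2 were higher and 1 lower, with the largest rise in Ctdspl (0.71, adjusted p = 1.02e-08) and the fall in Ctdsp1 (-0.32, adjusted p = 1.52e-06).

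Of 10 genes known as BMP targets in endothelium 7 were lower and 2 higher. Id1, the standard readout of SMAD1 and SMAD5 signalling, fell from 225 ± 21.8 to 85.2 ± 17 CPM with no overlap (-1.43, SE 0.07, adjusted p = 9.19e-17), the largest fall was that of Smad6 given above, and the larger rise was that of Bmper, a BMP-binding protein gene (0.70, adjusted p = 0.000521, from 3.1 to 5.09 CPM). Smad1 was higher in the same Glenn libraries in which Id1 and Smad6 were lower. Of 7 genes known as TGF-β targets 4 were higher and 2 lower. Bhlhe40, a transcription factor gene, rose from 97.1 ± 16.1 to 215 ± 43 CPM (1.11, SE 0.08, adjusted p = 3.7e-12), and the largest fall was that of Smad7, which is in both target lists.

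**Figure D5:**
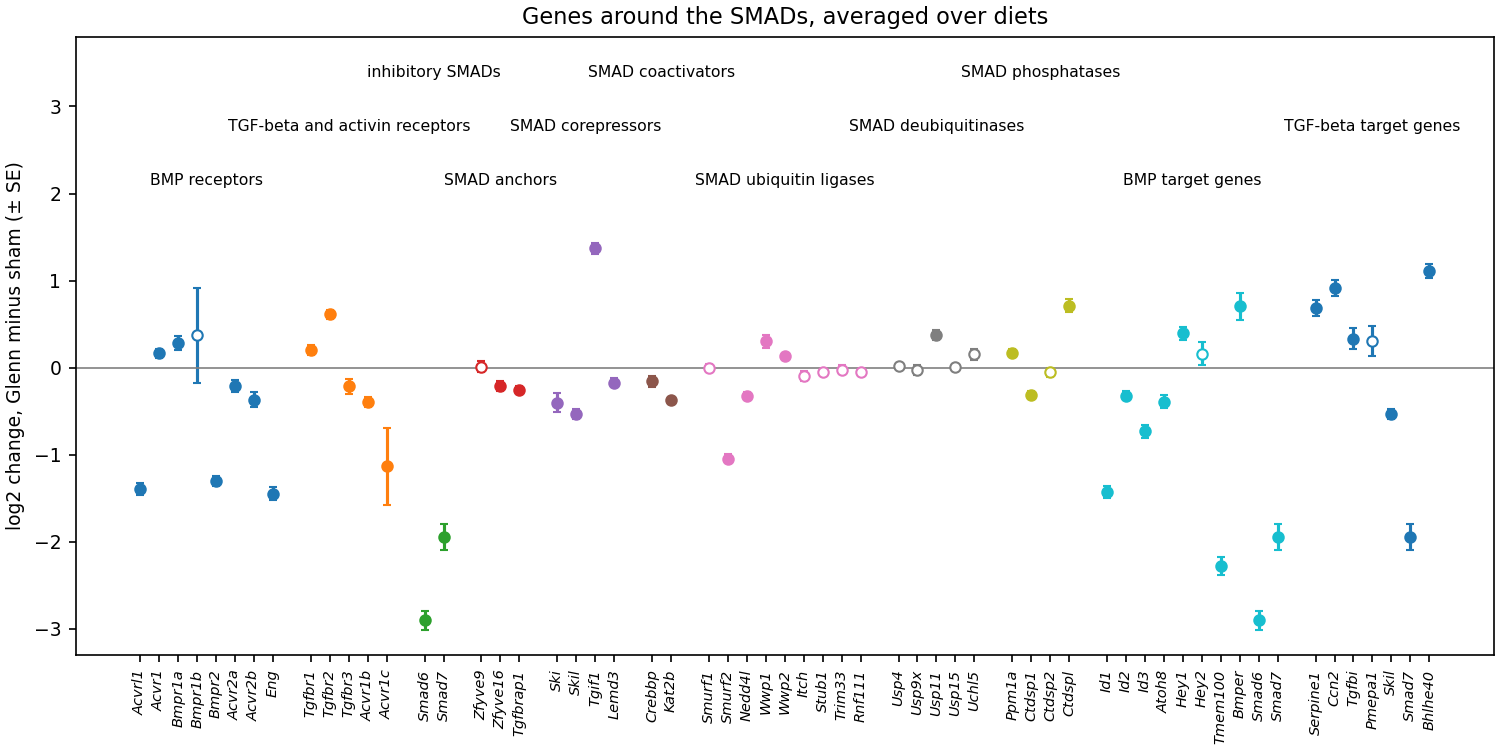
Log2 change, Glenn minus sham averaged over diets, of the 55 tested genes of the 11 lists around the SMADs (edgeR; bars are SE; filled circles have an adjusted p under 0.05). Smad6, Smad7 and Skil appear in more than 1 list, Smad6 has the largest fall at -2.90 and Tgif1 the largest rise at 1.37.

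Markers of other cell types moved with surgery as well. All 8 mural-cell markers were higher, with a summed level of 161 to 328 CPM over the sham and 466 to 1690 CPM over the Glenn libraries. All 5 lymphatic endothelial markers were higher (566 to 1030 against 869 to 1420 CPM summed), and 5 of 6 fibroblast markers were higher (1260 to 3240 against 1790 to 4680 CPM). Of 7 general endothelial markers 2 were higher and 4 lower (7660 to 10400 against 5450 to 8500 CPM), with Kdr, the main VEGF receptor gene, at -0.85 (adjusted p = 3.09e-10) and Pecam1, which encodes CD31, at -0.16 (adjusted p = 0.0692). Of the epithelial markers 1 of 7 was higher and 4 lower, of the 4 tested leukocyte markers 0 and 2, and of the 4 mesothelial markers 0 and 0. The erythroid gene Alas2 was at a median of 0.141 CPM and was called higher after Glenn (log2 change 2.94, adjusted p = 0.000513). Deviations of each list's summed level from the group means were correlated with those of each SMAD over the 30 libraries, leaving aside the erythroid list, which was near 0. For Smad1 the Pearson correlation was largest in size with the mesothelial (0.47), fibroblast (0.42) and leukocyte lists (-0.41), and was -0.24 with the mural list. For Smad9 it was largest with the mesothelial (0.58) and fibroblast lists (0.47), for Smad3 with the fibroblast (0.41) and mural lists (0.39), and for Smad2 with the mesothelial list (-0.45). For Smad5 it was -0.58 with the leukocyte list, which was almost entirely Lyz2, 0.50 with the endothelial and -0.49 with the epithelial list. For Smad4 it was -0.62 with the mural list. Replicate 3 of the Glenn group on the deficient diet held both the lowest Smad4 level (55 CPM) and the highest mural sum (1690 CPM). The correlation without that library was not computed. The part of these cell types in the SMAD changes was not tested.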

How the data were processed

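Per the labels' protocols, the sorted cells' RNA was extracted with a PureLink column kit and amplified with a low-input SMART-Seq kit. The values are estimated counts as deposited by the authors, from Salmon per the file's name. The submitters' processing notes also name FastQC, Trim Galore, STAR and Picard and the builds mRatBN7.2 and rn7, with no versions. Of the deposited estimated counts, 13.6% were not whole, and those of the 6 SMADs were within 0.001 of whole numbers. All 30 sample columns were used and 0 were left out.

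Counts were rounded, low genes were removed (edgeR 4.0.16, filterByExpr with a minimum count of 10 and a minimum total of 15) and the rest were scaled by TMM (factors 0.94 to 1.06). One robust quasi-likelihood fit (glmQLFit, glmQLFTest) in R 4.3.3 held all 30 libraries, with 6 group means and the range of the library-name number (under or over 500) as an additive term. P-values were adjusted by Benjamini-Hochberg over the 16171 genes, and SE was taken from the log2 change and its F statistic (change over root F). The fit was tested on simulated data. The alternatives were other batch terms, subsets of libraries, scalings, filters and tools (DESeq2 1.42.0, limma 3.58.1), a replicate block, and each library left out. Libraries of 1 group differed by 20.2 to 120 chi-square per degree of freedom over 60 pairs, far beyond sampling noise.

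The text names all 6 SMADs and the genes most like each. Of each pathway list it names the largest rise and fall past the threshold, plus 8 genes (Acvrl1, Bmpr2, Eng, Tgfbr1, Tgfbr2, Smad6, Smad7, Id1). The members and lists were chosen with earlier results of these data known. Replicate numbers were not treated as pairs across groups, except in the replicate block. Promoters are from RefSeq (GRCr8). No transcript lengths or gene coordinates were used. Of the erythroid markers, only Alas2 is reported here.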

Additional observations from a re-analysis of the deposited data

Results flagged for a closer look

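In the Glenn group on the deficient diet, Smad4 in replicate 3 (55 CPM) lay apart from the other 4 libraries (109 to 131 CPM), with a gap of 0.717 of the group's range, above the value of 0.71 that 5 samples allow. That library was set apart on the low side in 118 of 16171 genes, against 47 to 82 genes for the others of its group. Over all 30 libraries this count ran from 17 to 161, so 118 was not the highest. In the Glenn group on the excess diet, Smad1 in replicate 1 (242 CPM) lay below the other 4 libraries (290 to 304 CPM), with a gap of 0.761 of the range, and it remained above every sham library. Such gaps were looked for in 42 sets of values, where chance gives 2.1, and 2 were found.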

How the results depend on the processing

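Averaged over diets, the same 5 SMADs passed the threshold in the same directions under all 42 alternatives: Smad1 at 1.80 to 1.96, Smad2 at 0.12 to 0.20, Smad3 at 0.72 to 0.85, Smad5 at 0.27 to 0.37 and Smad9 at -0.95 to -0.84. By diet, subsets with few libraries called fewer SMADs: with the control diet 2 (RT1-CE16-low) and 3 (RT1-CE16-high) of the 5, on the deficient diet 2 among libraries numbered under 500 and 1 among RT1-CE16-low libraries (4), and on the excess diet 2 among RT1-CE16-low libraries and 2 when the fit held only those groups (4). The diet test after Glenn called 1 SMAD with DESeq2 and 0 to 1 with each library left out. Smad4, which passed in no setting, changed sign with library totals (0.0436 averaged, 0.0597 on the control diet) and, on the control diet, with DESeq2 or its size factors (0.0076 and 0.0077), the RT1-CE16 term (0.0088), libraries numbered under 500 (0.0042) and RT1-CE16-high libraries (0.0698). Leaving out 1 library gave Smad4 values of -0.0713 to 0.0452 averaged, -0.0222 to 0.0334 on the control and -0.2519 to 1e-04 on the deficient diet. Smad2 on the deficient diet passed with library totals (0.20, adjusted p = 0.0111), and the control-diet call of Smad2 was also lost without a filter, in the groups compared and within each RT1-CE16 level (adjusted p = 0.0621 to 0.575). By diet, Smad3 lost its calls among RT1-CE16-low libraries (adjusted p = 0.0513 to 0.18) and, on the excess diet, in the groups compared (adjusted p = 0.072), and Smad5 lost 8 in such subsets (adjusted p = 0.0513 to 0.136).

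Counts of all genes called were lower in these subsets and fits, and the cause was not tested: control diet (4023), 1563 RT1-CE16-low, 2497 RT1-CE16-high; on the deficient diet (4423) 2553 under 500, 2274 over 500, 2398 RT1-CE16-low, 2336 RT1-CE16-high; on the excess diet (3549) 2270 under 500, 2152 RT1-CE16-low and 1960 in the groups compared. The tests of diet depended on the setting, and the cause was not tested either. After Glenn (87 genes) they called 6 without the range term, 26 with the RT1-CE16 term, 155 under 500, 10 (RT1-CE16-low), 11 (RT1-CE16-high), 8 in the groups compared, 45 with library totals, 54 without a filter, 364 with DESeq2, 185 with voom, 139 with edgeR's newer fit (legacy = FALSE) and 2 to 333 with 1 library left out. After sham (0 genes) they called 14 under 500, 55 in the groups compared, 202 with DESeq2, 52 with voom, 5 with the newer edgeR fit and 0 to 10 with 1 library left out. For excess minus control after Glenn (237 genes) they called 19, 78, 11, 18, 531 and 375 with no range term, the RT1-CE16 term, RT1-CE16-low, RT1-CE16-high, DESeq2 and voom, and 2 to 557 with 1 library left out. For the interaction (1 gene) they called 0 without the range term, 0 with the RT1-CE16 term, 4 under 500, 2 without a filter, 35 with DESeq2, 5 with voom and 0 to 14 with 1 library left out.

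The replicate block called 12 genes for diet after Glenn, 37 after sham, 34 for excess minus control after Glenn and 2 for the interaction. The labels do not say whether the numbers pair the libraries. Same-numbered libraries of sham and Glenn groups had deviation correlations of -0.246 to 0.231 over 15 pairs (median 0.098), 7 of them over 0.1, and 5 correlated best with their own number. These values do not settle whether the libraries are paired. The Smad9 difference between excess and control diet after Glenn was also lost without Glenn control replicate 4 or 5, Glenn excess replicate 2 or 5 or sham deficient replicate 1 (adjusted p = 0.0506 to 0.115), and with the RT1-CE16 term (-0.50, adjusted p = 0.0743), under 500 (-0.75, adjusted p = 0.0808), within RT1-CE16-low (adjusted p = 0.342) or RT1-CE16-high libraries (adjusted p = 0.336), with voom (-0.52, adjusted p = 0.109) and with the replicate block (-0.52, adjusted p = 0.221).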
